A study of Mus musculus with 22 samples.

Results

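The genes of the early secretory pathway were chosen from the scaled expression table by symbol: all members of the Sec11, Sec13, Sec16, Sec22, Sec23, Sec24, Sec31, Sec61, Sec62 and Sec63 groups, the Tmed, Srp and Ssr genes, and 6 subunits of the COPI coat (Copa, Copb1, Copb2, Cope, Copg1 and Copz1). The rule found 52 of the 28711 genes of that table, of which 48 are protein coding and 4 are processed pseudogenes (Sec61bl, Sec61g-ps2, Tmed10-ps and Tmed2b). Tmed6 missed the filter on low counts, at no more than 0.199 CPM (counts scaled to library size) in any library, so 51 members were tested. Fold changes had no part in the rule.

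RNA was sequenced in bulk from first mandibular molars of mice heterozygous for the G357W allele of Tgfbr2, the type II receptor of transforming growth factor beta (Het, Tgfbr2 G357W/+), and of wild-type Tgfbr2 +/+ littermates (WT). Molars were taken at postnatal day 5 (P5; 6 WT and 6 Het libraries) and postnatal day 11 (P11; 5 WT and 5 Het libraries). The mice model Loeys-Dietz syndrome type II, and the labels name no Cre driver, tissue restriction or other allele for either genotype. The series names 5 Het and 8 WT mice, fewer than its libraries, and does not say which libraries share an animal, so every p-value measures the spread between libraries. One library, P5 Het replicate 6, has P5 in its title and P11 in its tissue field and was kept with P5. Its Enam and Amelx, at 27030 and 44028 CPM, lay among the other P5 values. No P11 library was above 2713 CPM for Enam or 4447 CPM for Amelx. Library totals ran from 32903949 to 45343744 counts, and all libraries carry 1 batch label. Counts per gene do not read the G357W base, so they do not check the genotype labels. Ameloblast markers (Amelx, Ambn, Enam, Klk4, Amtn, Odam) and odontoblast markers (Dspp, Dmp1, Col1a1, Phex) were detected in all 22 libraries.

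Proteins that leave the cell enter the endoplasmic reticulum (ER) as they are made. The signal recognition particle (SRP) brings the ribosome to the Sec61 channel, the translocon-associated protein complex (TRAP, made from the Ssr genes) assists entry, and signal peptidase (Sec11a or Sec11c) trims the signal sequence. COPII coats, organised by Sec16 and built from an inner Sec23-Sec24 layer and an outer Sec13-Sec31 layer, then carry cargo to the Golgi. COPI coats return vesicles to the ER, p24 proteins (Tmed genes) act as cargo receptors that cycle between both compartments, and Sec22b is a SNARE that fuses these vesicles. In the tooth the heaviest users of this route are ameloblasts, which lay down the enamel matrix proteins amelogenin (Amelx), ameloblastin (Ambn) and enamelin (Enam) in their secretory stage, and odontoblasts, which secrete collagen and dentin proteins.

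Transcription of many of these genes is known to be driven by factors of the ER stress response and by the CREB3 family, so promoters were read for their elements first. RefSeq promoter windows, 250 bases before to 50 bases after a start site on GRCm38.p6, matched 41 of the 52 members by symbol. The unfolded protein response element (UPRE, TGACGTGG on either strand, CCACGTCA when reversed), a sequence that XBP1 is known to bind, was present in 5 of the 41 genes (12.2%), against 193 of all 27025 genes with a window (0.714%). The 5 genes are the COPI beta subunits Copb1 and Copb2, the COPII scaffold Sec16b and the inner coat genes Sec23a and Sec24d. Their windows of 130 bases around the start site are shown 5′ to 3′ on the gene's strand because they hold the element, which is in capitals.
Copb1, chr7:114254651-114254780, minus strand: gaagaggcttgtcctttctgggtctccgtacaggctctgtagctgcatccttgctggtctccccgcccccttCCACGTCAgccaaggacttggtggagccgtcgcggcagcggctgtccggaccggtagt
Copb2, chr9:98563631-98563760, plus strand: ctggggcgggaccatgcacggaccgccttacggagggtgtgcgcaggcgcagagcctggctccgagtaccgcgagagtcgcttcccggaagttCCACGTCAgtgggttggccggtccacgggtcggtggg
Sec16b, chr1:157506696-157506825, plus strand: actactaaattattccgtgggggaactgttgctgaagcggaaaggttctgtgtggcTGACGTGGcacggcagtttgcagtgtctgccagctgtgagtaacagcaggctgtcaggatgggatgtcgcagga
Sec23a, chr12:59011988-59012117, minus strand: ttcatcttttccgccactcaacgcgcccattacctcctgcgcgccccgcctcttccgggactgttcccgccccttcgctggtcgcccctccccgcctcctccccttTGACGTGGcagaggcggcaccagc
Sec24d, chr3:123267396-123267525, plus strand: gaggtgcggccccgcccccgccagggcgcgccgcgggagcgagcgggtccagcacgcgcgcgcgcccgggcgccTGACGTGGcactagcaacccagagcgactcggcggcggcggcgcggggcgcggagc
Counted from the start site, the element begins 28 bases before it in Copb1, 7 before in Copb2, 44 before in Sec16b and 26 before in Sec24d, and 6 bases after it in Sec23a. It reads on the gene's own strand in Sec16b, Sec23a and Sec24d, and on the other strand in Copb1 and Copb2. A pair of related elements was in none of the 41 promoters: the ER stress response element (ERSE, CCAAT and CCACG separated by 9 bases, either strand), found in 0.137% of all genes, and ERSE-II (ATTGG and CCACG separated by 1 base, either strand), found in 0.0444%. The CCACG core, which the UPRE and both of these contain, was in 27 of the 41 members (65.9%) and in 35.5% of all genes. A match is a description of letters, and no binding was measured.

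The age comparison asked how the members differed between P11 and P5 in each genotype. In WT molars 32 of the 51 members fell from P5 to P11 and 2 rose, and in Het molars 29 fell and 4 rose. These calls were made at an adjusted p under 0.05 in edgeR's quasi-likelihood test, with Benjamini-Hochberg adjustment over all 21510 genes tested, as are all adjusted p-values below unless another test is named. Over all genes tested 24.7% were lower and 24.8% higher in WT, and 23.4% lower and 24.4% higher in Het. The median log2 fold change of the members was -0.25 in WT and -0.27 in Het, beside medians of -0.0078 and -0.0096 over all genes. In both genotypes 27 members fell (18.2% of all genes did) and 2 rose (19.7% of all genes did), and 13 passed the test in neither. All 5 P11 values lay below all 6 P5 values for 25 members in WT and 26 in Het, a pattern shown by 15.5% and 14.4% of all genes. They lay above for 2 members in each genotype (16.6% and 15.9% of all genes). Without P5 Het replicate 6, the library with conflicting labels, 31 of the 33 Het calls were kept, and Tmed3 and Sec22a no longer passed.

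These counts depend on how libraries are scaled, more so in WT than in Het. When libraries were scaled by their totals alone, a setting added after the data had been seen, the median of all genes in WT moved from -0.0078 to 0.128 on the log2 scale. The split over all genes moved from 5326 higher and 5307 lower to 6992 higher and 3865 lower. WT members then numbered 21 lower and 6 higher, and their median was -0.11. In Het the same setting moved the median of all genes from -0.0096 to 0.0354. It kept 31 of the 33 member calls there, and the members' median was -0.22.

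**Figure D1:**
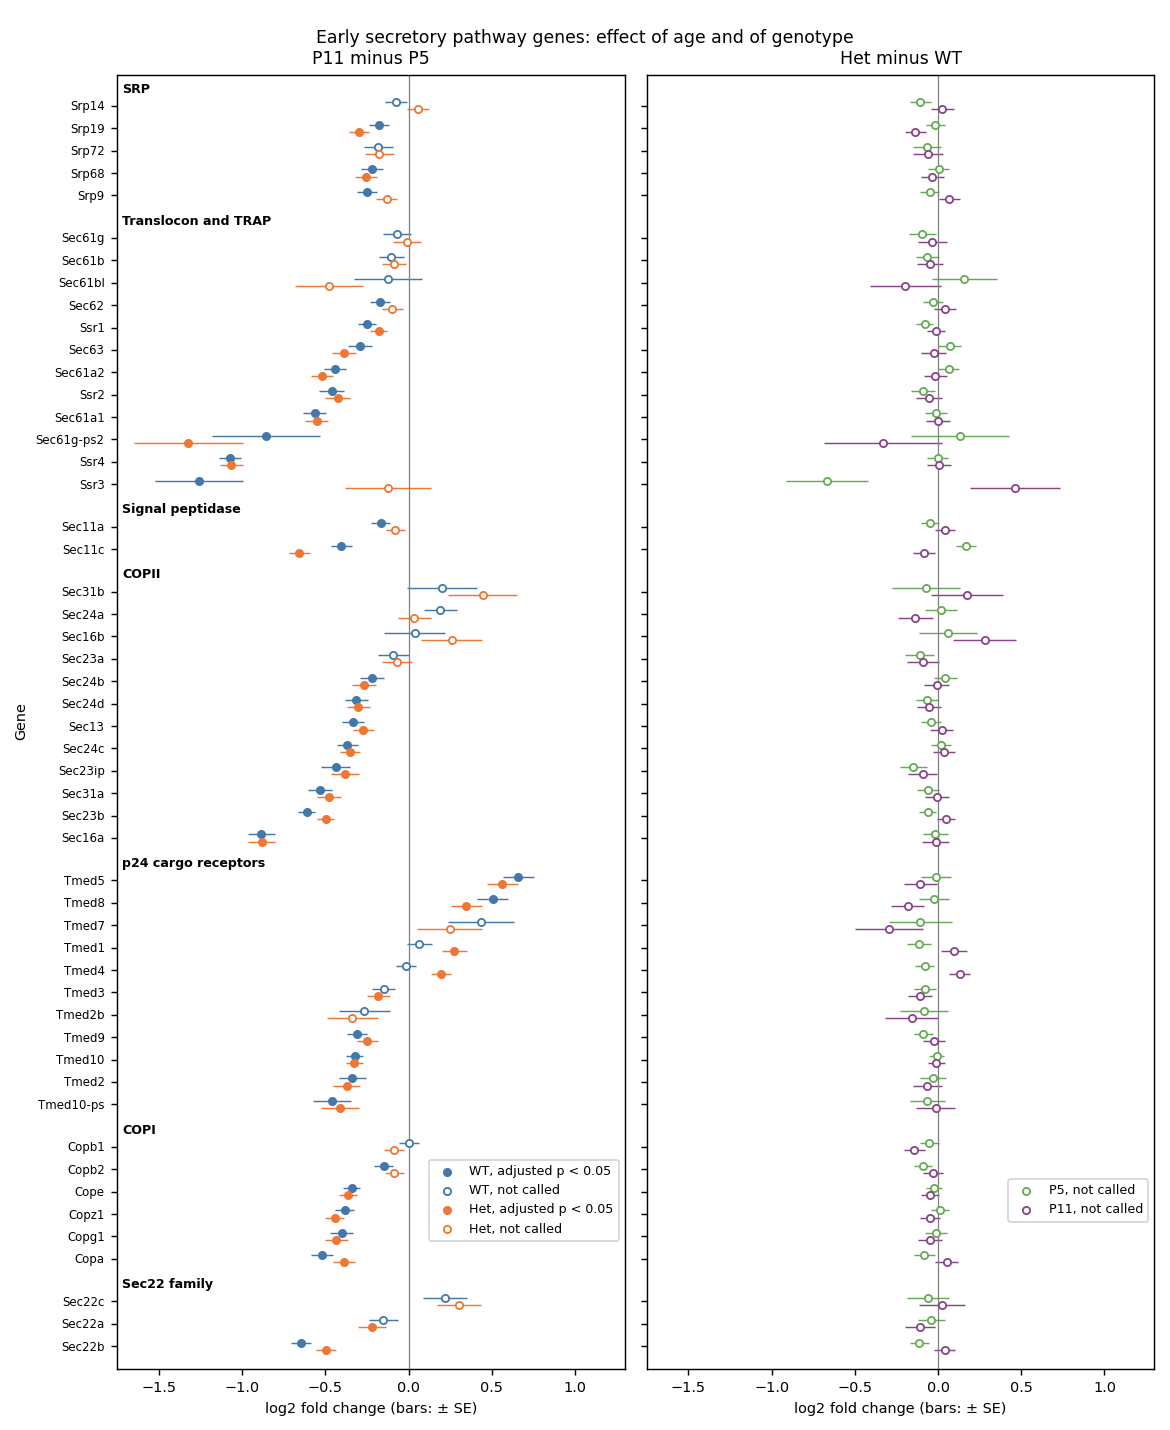
Log2 fold change of each of the 51 tested members, arranged by role, with bars of ± 1 standard error: P11 minus P5 in WT and in Het (left panel) and Het minus WT at P5 and at P11 (right panel). Filled points passed the adjusted p threshold of 0.05 and open points did not. In the left panel most filled points lie below 0, with Tmed5 and Tmed8 above 0 in both genotypes, and in the right panel no point is filled.

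Genes of entry into the ER were lower at P11 or did not pass. In WT 9 of the 12 genes of the Sec61 translocon and TRAP fell, as did both signal peptidase genes and 3 of the 5 SRP genes, and none rose. Over all genes 24.7% fell and 24.8% rose in WT. The 12 include the pseudogenes Sec61bl and Sec61g-ps2, and Sec61g-ps2 is among the 9. Ssr4, a TRAP subunit (chrX:73787028-73790830), ranged from 192 to 218 CPM around a median of 209 in the 6 P5 WT libraries, and from 195 to 216 around 205 in P5 Het. At P11 it was at 89.0, 94.4, 91.4, 106 and 109 CPM in WT libraries and at 87.3, 114, 95.1, 98.1 and 98.0 CPM in Het. The ages did not overlap in either genotype, and the highest P11 library was far below the lowest P5 library. The fitted log2 fold change was -1.07 ± 0.068 (SE; adjusted p = 3.82e-12) in WT and -1.06 ± 0.068 (adjusted p = 5.28e-12) in Het. That is a 2.10-fold lower level in WT and 2.09-fold lower in Het. Sec61a1, the pore-forming subunit of the channel (chr6:88503579-88518905), was at 230.4 to 269 CPM (median 240.1) in P5 WT and at 218 to 273 CPM (median 232) in P5 Het. Its P11 values were 155, 167, 160.5, 163 and 173 CPM in WT and 154, 149, 165, 163 and 186 CPM in Het. Again no P11 library reached a P5 library, with changes of -0.56 ± 0.0701 (adjusted p = 3.77e-07) and -0.55 ± 0.0701 (adjusted p = 5.77e-07). The second alpha isoform, Sec61a2, fell by 0.44 and 0.52 on the log2 scale. Sec63, which recruits the chaperone BiP to the channel, fell by 0.29 and 0.39.

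All 4 TRAP genes fell in WT, and Ssr1, Ssr2 and Ssr4 fell in Het as well, while Ssr3, described further on, fell by 1.26 in WT and did not pass in Het. On a length-corrected scale (RPKM, CPM divided by exon length in kilobases) Ssr2 was the most abundant member in P5 WT at 171 ± 12.9 (SD, n = 6) and was at 125 ± 15.2 (n = 5) in P11 WT, while Ssr4 went from 66.6 ± 3.13 to 31.7 ± 2.95 RPKM. In the fit Ssr2 fell by 0.46 in WT and 0.42 in Het, and Ssr1 by 0.25 and 0.18. The beta and gamma subunits of the channel, Sec61b and Sec61g, passed the test in neither genotype, with log2 changes of -0.10 and -0.07 in WT and -0.09 and -0.01 in Het. Of the SRP proteins Srp68 and Srp19 fell in both genotypes, by 0.22 and 0.18 in WT and 0.26 and 0.30 in Het, and Srp9 fell in WT only, by 0.25. Srp14, which pairs with Srp9, and Srp72, the partner of Srp68, passed in neither, at -0.08 and -0.18 in WT. The pseudogene Sec61g-ps2 was called lower in both genotypes at under 1 CPM, and reads of the 4 pseudogenes may come from their parent genes.

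Within COPII, 8 of 12 genes fell in both genotypes, and none rose, where 18.2% of all genes fell and 19.7% rose in both. Sec16a, the scaffold that marks ER exit sites (chr2:26409431-26445216), was at 362 to 413 CPM (median 384) in P5 WT and at 351 to 424 CPM (median 381) in P5 Het. At P11 it was at 201, 199.6, 197, 211 and 242 CPM in WT libraries and at 205, 194, 171, 247 and 222 CPM in Het. Every P11 library was below every P5 library, and the change was -0.88 ± 0.0802 in both genotypes (adjusted p = 2.26e-09 in WT and 2.62e-09 in Het). Sec23b, an inner coat subunit that activates the GTPase Sar1 (chr2:144556229-144590749), ranged from 226 to 248 CPM (median 232) in P5 WT and from 219 to 235 CPM (median 224) in P5 Het. Its P11 values were 149, 153, 147, 156 and 164 CPM in WT and 152, 166, 147, 170.3 and 159.7 CPM in Het. These groups were also apart, by -0.61 ± 0.052 (adjusted p = 7.42e-10) and -0.50 ± 0.0519 (adjusted p = 2.48e-08).

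Sec31a forms the outer cage with Sec13 (chr5:100361649-100416234). It was at 615 to 731 CPM (median 656) in P5 WT and at 608 to 665 CPM (median 648) in P5 Het. At P11 it was at 441, 444, 412, 485 and 534 CPM in WT libraries and at 419, 468, 458, 511 and 449.6 CPM in Het. All P11 values lay below those of P5, with changes of -0.53 ± 0.0706 (adjusted p = 1.02e-06) and -0.48 ± 0.0705 (adjusted p = 4.89e-06). Sec13 itself fell by 0.33 and 0.27. The cargo-binding Sec24 genes were split: Sec24b, Sec24c and Sec24d fell in both genotypes, by 0.22, 0.37 and 0.31 in WT, whereas Sec24a was at 0.19 (adjusted p = 0.121) in WT and 0.03 in Het. Sec23ip, a Sec23 partner, fell by 0.44 and 0.38. Sec23a, Sec16b and Sec31b passed in neither genotype, at -0.09, 0.04 and 0.20 in WT.

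Returning traffic gave similar counts, with 4 of the 6 COPI subunits lower in both genotypes (18.2% of all genes were). Copa, the alpha subunit (chr1:172082529-172122330), was at 437 to 522 CPM (median 459.6) in P5 WT and at 407 to 476 CPM (median 441) in P5 Het. At P11 it was at 315, 318, 311, 345 and 355 CPM in WT libraries and at 303, 364, 343, 354 and 338 CPM in Het. No P11 library overlapped P5, and the changes were -0.52 ± 0.0673 (adjusted p = 6.69e-07) and -0.39 ± 0.0671 (adjusted p = 4.08e-05). Copg1, Copz1 and Cope fell by 0.40, 0.38 and 0.34 in WT and by 0.43, 0.44 and 0.36 in Het. Copb2 fell in WT alone, by 0.15. Copb1 passed in neither genotype, at 0.0036 (adjusted p = 0.967) in WT and -0.09 (adjusted p = 0.243) in Het, with a WT interval of -0.12 to 0.13.

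Sec22b, the SNARE of ER-Golgi vesicles (chr3:97901190-97923276), was at 168 to 192 CPM (median 179.9) in P5 WT and at 151 to 192 CPM (median 162) in P5 Het. Its P11 levels were tight, at 118, 117, 115, 114 and 112 CPM in WT and 112, 120.1, 127, 115 and 117 CPM in Het. They lay below every P5 library, with changes of -0.65 ± 0.0601 (adjusted p = 3.3e-09) and -0.50 ± 0.0599 (adjusted p = 2.6e-07). Its relatives differed: Sec22a fell in Het only, by 0.22, and Sec22c passed in neither genotype.

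The p24 cargo receptors were the group with members on both sides. Tmed2, Tmed9 and Tmed10 fell by 0.34, 0.31 and 0.32 in WT and by 0.37, 0.25 and 0.33 in Het, together with the pseudogene Tmed10-ps. Tmed5, a gamma-class p24 protein (chr5:108106366-108132620), rose: it was at 19.9 to 27.8 CPM (median 24.2) in P5 WT and at 21.1 to 28.4 CPM (median 22.8) in P5 Het. Its P11 values of 33.8, 39.1, 34.5, 39.7 and 41.6 CPM in WT and 37.8, 33, 30.6, 38.5 and 35.4 CPM in Het were all above P5. The changes were 0.66 ± 0.095 (adjusted p = 3.26e-06) and 0.56 ± 0.095 (adjusted p = 2.92e-05). Tmed8 also rose in both genotypes, by 0.51 and 0.35, and Tmed1 and Tmed4 rose in Het only, by 0.28 and 0.20. On the length-corrected scale the rising gene is the scarcer one: in P5 WT, Tmed5 was at 3.11 ± 0.44 RPKM and Tmed9 at 114 ± 2.63 RPKM (SD, n = 6).

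**Figure D2:**
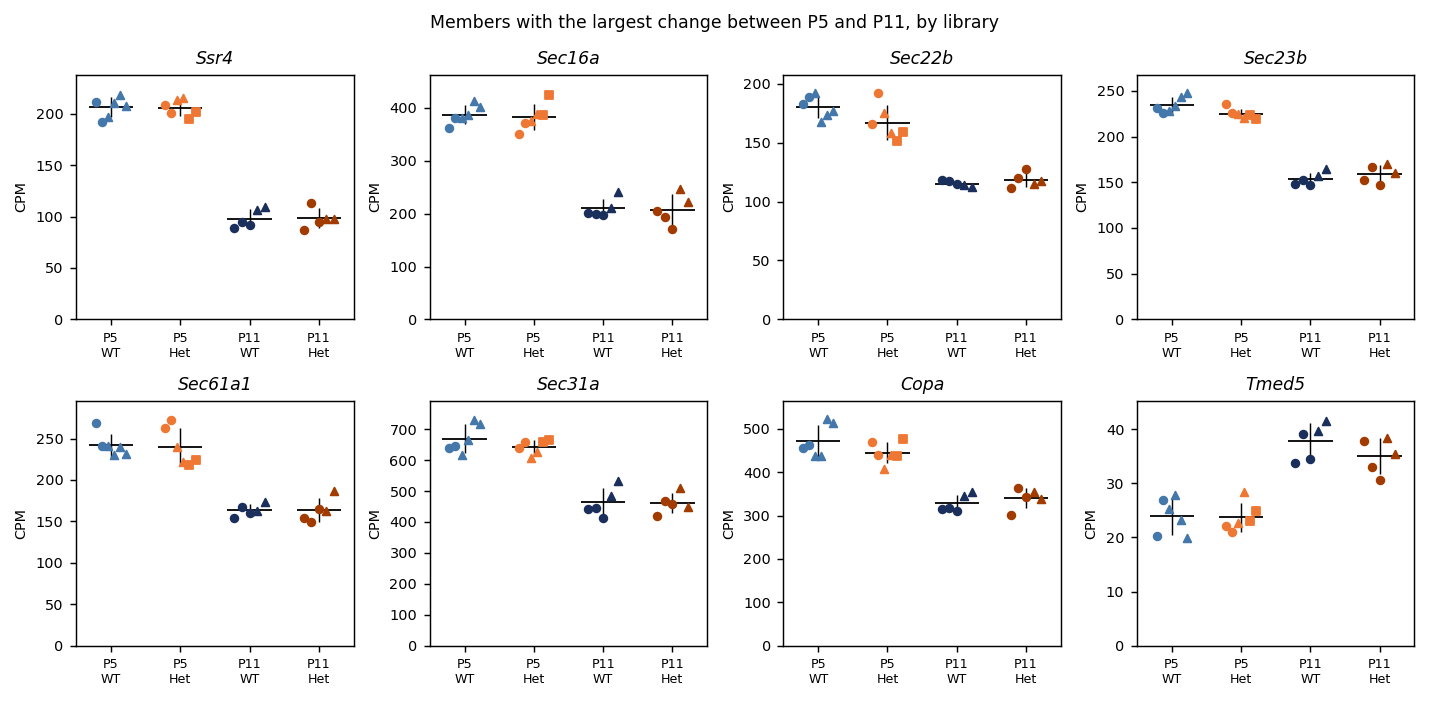
CPM (TMM-scaled) in each library of the 8 members with the largest changes of either sign that passed in both genotypes at 10 CPM or more, in the 4 groups. Horizontal lines are means, vertical bars SD, and marker shapes give the number that opens the library name. In 7 of the panels both P11 groups lie below both P5 groups, and in the Tmed5 panel they lie above.

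Several members have a paralog with the same place in the machinery, and the log2 ratio of counts (0.5 added to each) within each of 7 such pairs was compared by a two-sided exact permutation test, adjusted over the 28 comparisons. The ratio is not corrected for gene length, so only its change between groups is read. Sec16a over Sec16b went from 3.20 ± 0.29 (SD, n = 6) in P5 WT to 2.26 ± 0.23 (n = 5) in P11 WT, and from 3.10 ± 0.18 to 2.02 ± 0.38 in Het. Sec23a over Sec23b went the other way, from 0.39 ± 0.14 to 0.91 ± 0.07 in WT and from 0.34 ± 0.13 to 0.76 ± 0.13 in Het. Within each age this ratio also differed by the number that opens the library name, which cannot be told apart from age. In P5 WT it was 0.21 and 0.24 under number 3 and 0.40 to 0.54 under number 4. In P11 WT it was 0.83 to 0.89 under number 1 and 0.97 and 1.00 under number 2. Under the same numbers P5 Het gave 0.16 and 0.20, then 0.40 and 0.44. P11 Het gave 0.65 to 0.70, then 0.83 and 0.97. Sec16a over Sec16b in P11 Het was 1.89 to 2.43 under number 1, and 1.60 and 1.78 under number 2. In P11 WT the values of the 2 numbers overlapped for that pair. In the signal peptidase Sec11a over Sec11c went from 0.80 ± 0.10 to 1.04 ± 0.03 in WT and from 0.59 ± 0.17 to 1.16 ± 0.16 in Het. In P5 Het this ratio was 0.72 and 0.86 under number 3, and 0.41 to 0.53 under numbers 4 and 5. In P5 WT the values of numbers 3 and 4 overlapped. The ages did not overlap in these 6 comparisons, each at the smallest p that 6 against 5 libraries allow (exact permutation p = 0.00433, adjusted p = 0.0173). Within these pairs Sec16a and Sec23b fell in both genotypes in the fit of all genes, and Sec16b and Sec23a passed in neither.

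The remaining pairs gave less. Sec24a over Sec24b rose by 0.41 in WT (exact permutation, adjusted p = 0.0455), and its change of 0.29 in Het did not pass (adjusted p = 0.26). Sec31a over Sec31b fell by 0.96 in Het (exact permutation, adjusted p = 0.0173), and its change of -0.74 in WT did not pass (adjusted p = 0.0673). With 5 in place of 0.5 added to each count before the ratio, the WT value was -0.71 (exact permutation, adjusted p = 0.0404). Sec31b was under 2.1 CPM in every library, so its ratio rests on few reads. Neither Sec24c over Sec24d nor Sec61a1 over Sec61a2 passed the test at either genotype, with changes of -0.05 and -0.12 in WT. Without 5 libraries that carried raised markers of other tissue (named below) these changes kept their sign, but no pair passed, at an adjusted p of 0.1 at best (exact permutation). Against genotype no pair passed, the smallest adjusted value being 0.0788 (exact permutation) for Sec11a over Sec11c at P5.

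**Figure D3:**
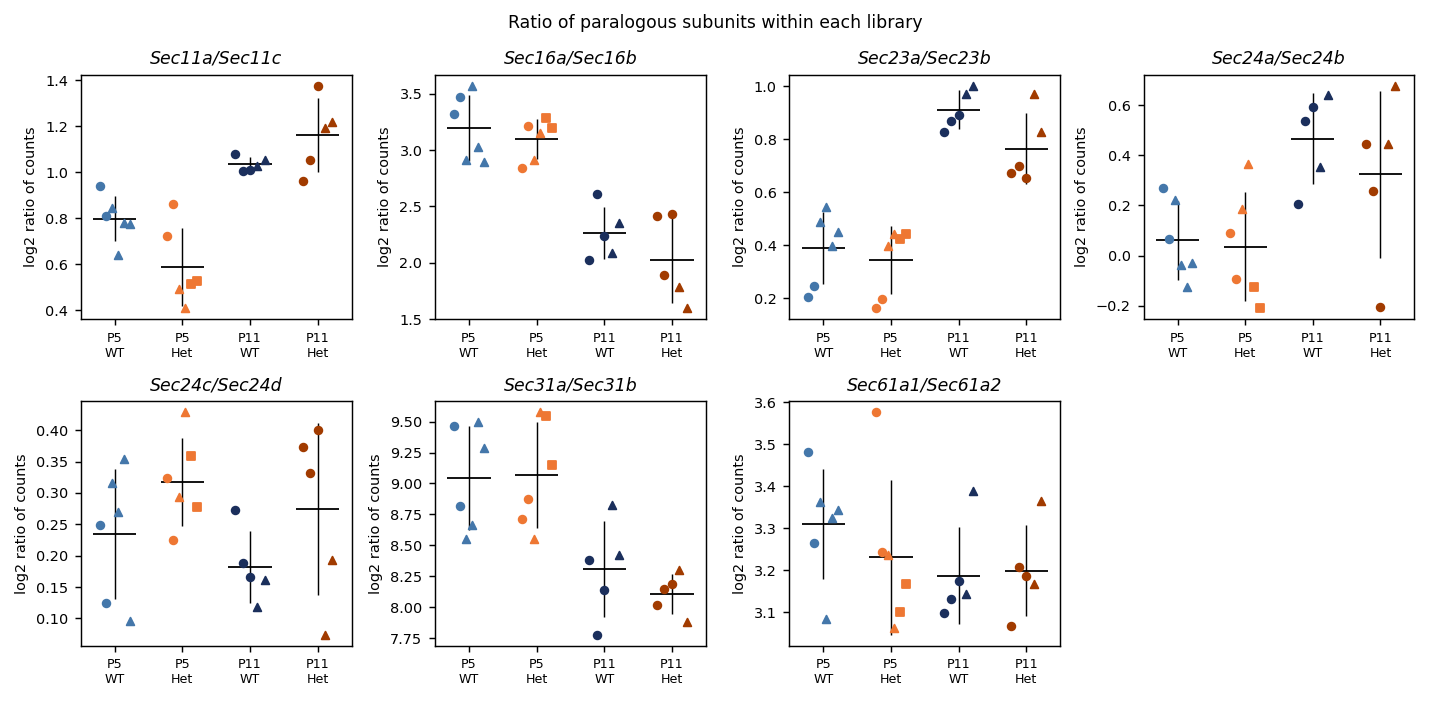
Log2 ratio of counts (y axis) for 7 pairs of paralogs in each library of the 4 groups, with means as horizontal lines and SD as vertical bars. The P11 groups lie below P5 for Sec16a over Sec16b and above P5 for Sec23a over Sec23b and Sec11a over Sec11c.

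Neighbouring genes of the route were counted in 5 lists, beside the 24.7% of all genes that fell and 24.8% that rose in WT (23.4% and 24.4% in Het). Of 12 subunits of oligosaccharyltransferase, which adds sugars to proteins entering the ER, 9 fell in WT and 8 in Het and none rose; Ddost fell by 0.75 and 0.59 and Stt3a by 0.59 and 0.57. Translocon partners (14 genes, among them the other signal peptidase subunits and the SRP receptor) gave 8 lower and none higher in WT, and 7 lower and 1 higher in Het, with Spcs2 at -0.57 and -0.48. COPII regulators and cargo receptors gave 8 of 18 lower and 1 higher in each genotype. Surf4, a receptor for soluble cargo that amelogenins are known to use, fell from 584 ± 40.4 CPM in P5 WT to 289 ± 11 CPM in P11 WT, and Tfg, which organises COPII carriers, fell by 0.83 and 0.84. Further COPI subunits and regulators gave 8 of 12 lower and 2 higher in WT and 7 lower and 1 higher in Het, with Gbf1, which loads the coat's GTPase, at -0.65. Of 17 tethers and SNAREs 8 fell and 2 rose in WT and 6 fell and 2 rose in Het, where the median was -0.06, and the ER SNARE Stx18 was at -1.35 in WT and -0.84 in Het. The medians of these 5 lists in WT lay between -0.32 and -0.14, beside -0.0078 for all genes.

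Of 11 transcription factors known to drive such genes, 4 fell and 3 rose in each genotype, where 24.7% of all genes fell and 24.8% rose in WT and 23.4% and 24.4% in Het. Xbp1, the UPRE-binding factor of the ER stress response, was at 172 to 239 CPM (median 199) in P5 WT and at 119, 127, 121, 127 and 125 CPM in P11 WT. In Het it was at 179 to 213 CPM (median 205) at P5 and at 115, 134, 111, 125 and 116 CPM at P11. The ages did not overlap, with log2 changes of -0.71 (adjusted p = 4.15e-08 in WT) and -0.75. Creb3l2, known to activate Sec23a in cartilage, fell from 541 ± 78.7 to 231 ± 17.3 CPM in WT and from 546 ± 67.1 to 272 ± 29 CPM in Het. Atf6b fell by 0.94 and 0.63, and Bhlha15 by 1.37 and 0.69 at under 2.2 CPM. Atf6 (0.39 and 0.15), Creb3l1 (0.47 and 0.29) and Atf4 (0.27 and 0.22) rose in both genotypes, and Creb3, Creb3l3, Creb3l4 and Ddit3 passed in neither.

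The 5 members with the UPRE gave no common pattern with age, and a part of Xbp1 in their levels was not tested. Sec24d fell in both genotypes and Copb2 in WT only, while Copb1, Sec16b and Sec23a passed in neither. Of the 19 members that fell in both genotypes and had a promoter window, 1 held the UPRE and 13 held the CCACG core. Over all 128 tested genes with a UPRE in their window, 36.7% fell and 28.9% rose with age in WT, against 26.1% and 28.5% of the 12841 tested genes whose windows lack it.

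Single cargo genes moved by several log2 units, in both directions. Summed over all members, expression was 8021 ± 308 CPM in P5 WT, against 7558 ± 137 CPM in P5 Het (SD, n = 6 each), and 6072 ± 335 and 6084 ± 284 CPM in P11 WT and Het (n = 5 each). The enamel proteins of the secretory stage, Amelx, Ambn and Enam, together made up 159478 ± 5722 CPM in P5 WT and 21862 ± 4129 CPM in P11 WT. In Het the same sum was 148387 ± 13919 CPM at P5 and 31723 ± 11975 CPM at P11. Single log2 changes in WT were -4.98 for Amelx, -2.19 for Ambn and -7.11 for Enam. Secreted products of the maturation stage rose: Klk4, a protease that clears the enamel matrix, by 4.95, and Odam by 5.28, to 64339 CPM on average in P11 WT. Of 12 dentin and matrix genes 9 rose and 1 fell in each genotype, with Col3a1 at 2.20 and 2.17 and Dspp at -1.38 and -1.13. As whole lists the cargo changed less than its single genes: the 8 enamel genes summed to 162150 CPM in P5 WT and 87247 CPM in P11 WT, while the 12 dentin and matrix genes went from 35575 to 58749 CPM. In Het the enamel list went from 150450 to 103910 CPM and the dentin and matrix list from 37768 to 48144 CPM.

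**Figure D4:**
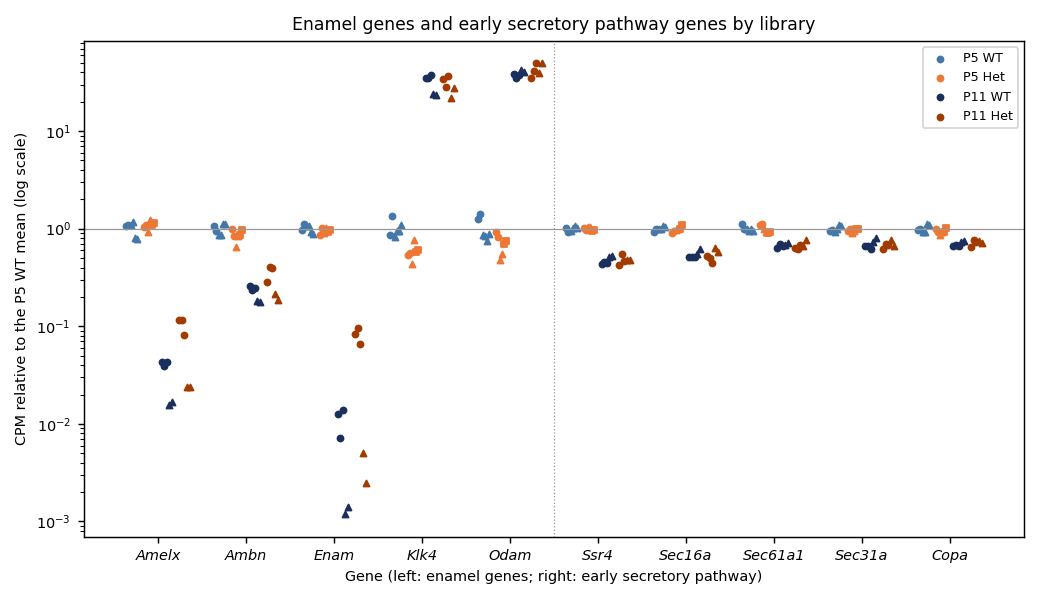
CPM relative to the P5 WT mean, on a log axis, for 5 secreted enamel proteins (Amelx, Ambn, Enam, Klk4, Odam) and 5 machinery genes (Ssr4, Sec16a, Sec61a1, Sec31a, Copa) in each library. Among the 5 machinery genes drawn, Ssr4 has the largest change and ends 2.10-fold lower in WT, while the log2 changes are -4.98 for Amelx and -7.11 for Enam, 4.95 for Klk4 and 5.28 for Odam.

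Markers listed for other tissue also moved with age. The bone list shares Bglap and Ibsp with the dentin and matrix list above, so it does not mark other tissue alone. In WT all 8 oral keratinocyte markers, all 6 erythroid markers, 4 of 5 bone markers, 3 of 5 myeloid and osteoclast markers and 3 of 6 tested muscle markers were higher at P11, and none was lower. In Het these counts were 8, 6, 2, 3 and 1, again with none lower. Summed keratinocyte markers were at 13.7 to 15.7 CPM in P5 WT, 13.5 to 29.8 in P5 Het, 72.1 to 1309 in P11 WT and 92.2 to 866 in P11 Het. Krt4, at 0 in 3 libraries, reached 305 CPM in P11 WT replicate 4, and Krt13 and Krt16 were at 0 in 1 library each. Summed bone markers were at 382 to 449 and 356.8 to 494 CPM in P5 WT and Het, and 1021 to 1986 and 851 to 1563 CPM at P11. Erythroid markers were at 53.8 to 98.5 and 69.9 to 94.8 CPM at P5 and 202 to 415 and 176 to 318 CPM at P11. Myeloid and osteoclast markers were at 89.7 to 118 and 82.0 to 125 CPM at P5 and 333 to 456 and 287 to 419 CPM at P11, and muscle markers at 6.27 to 10.8 and 7.38 to 55.1 CPM at P5 and 13.9 to 30.8 and 11.3 to 71.8 CPM at P11. The bone marker Mepe was at 0 in 4 libraries, and the muscle markers Myh3 and Tnnc2 in 7 and 8. Without the 5 libraries with raised markers of other tissue (P5 Het 4 and 5, P11 WT 4 and 5, P11 Het 2), 32 of the 34 WT calls and 32 of the 33 Het calls kept their direction and passed. The part of the remaining marker differences in the members' changes was not tested. In whole molars fewer cells of a type and less RNA per cell cannot be told apart.

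The genotype comparisons asked whether the members differed between Het and WT molars. None of the 51 members passed at P5, at P11 or in the test of whether the age change differed by genotype, where 0.26%, 0.0279% and 0.0139% of all genes did. At an unadjusted p under 0.05 edgeR gave 2, 3 and 3 members, and DESeq2 gave 0 calls and 3, 2 and 3 members. At P5 40 of the 51 log2 differences were below 0 and at P11 35 were, with medians of -0.05 and -0.03, beside -0.0042 and -0.0076 over all genes. Of all 21510 genes, 11019 were below 0 at P5 and 11125 at P11. At P11 the members' lean depended on the libraries kept. It was 22 of 51 with a median of 0.0153 without the 5 libraries with raised markers, and 27 of 51 without P11 WT replicate 5 alone. At P5 it was 40 of 51 with a median of -0.0591 without those 5 libraries, and 35 to 41 when single libraries were left out. With libraries scaled by totals alone, 29 were below 0 at P5 and 45 at P11. The 95% interval of the difference lay within -0.5 to 0.5 for 48 members at P5 and 45 at P11. The exceptions at P5 were Ssr3 and the pseudogenes Sec61bl and Sec61g-ps2, joined at P11 by Sec16b, Sec31b and Tmed7.

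The members with the smallest p-values were few. Sec11c was at 54.2 to 59.7 CPM (median 57.1) in P5 WT and at 55.8 to 69.9 CPM (median 64.7) in P5 Het, where the highest values were all Het but the groups overlapped. The difference was 0.17 ± 0.0582 (unadjusted p = 0.00851, adjusted p = 0.517). Copb1 at P11 was at 174, 199, 188, 188 and 214 CPM in WT and 171, 172, 179.6, 187 and 163 CPM in Het, a difference of -0.14 ± 0.0627 (adjusted p = 0.465). Srp19 at P11 was at 41.4, 48.7, 45.3, 53.9 and 52.2 CPM in WT and 44.4, 47.5, 44.4, 43.1 and 40.4 CPM in Het, a difference of -0.14 ± 0.0639 (adjusted p = 0.492). Both pairs of groups overlapped. Tmed8 was the one member whose P11 groups did not overlap (0.748% of all genes had Het below WT in this way, and 0.614% above), at 27.5, 28, 27, 31.1 and 29.2 CPM in WT and 25.6, 26.8, 24.5, 22.7 and 26.2 CPM in Het, and its difference of -0.18 did not pass (adjusted p = 0.559).

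Ssr3, the gamma subunit of TRAP (chr3:65379655-65392623), was singled out after its values were seen: its within-group coefficient of variation, 33.5%, was the highest of the 45 members at 10 CPM or more. In P5 WT it was at 314 to 1137 CPM (median 506) and in P5 Het at 249.6 to 566 CPM (median 347). At P11 it was at 272, 242, 235, 247 and 224 CPM in WT libraries and at 233, 403, 491, 246 and 309 CPM in Het. The P11 WT libraries were close together and below all P5 WT libraries, while both Het groups were spread and overlapped each other. It fell with age in WT by 1.26 ± 0.265 (adjusted p = 0.000347) and not in Het (-0.12 ± 0.258, adjusted p = 0.72), and the difference between these changes, 1.13 ± 0.365, did not pass (adjusted p = 0.373). At P5 the Het minus WT difference was -0.67 with an interval of -1.18 to -0.16 (adjusted p = 0.601). Much of this size came from 1 library: without P5 WT replicate 1 the WT age change was -0.93 (adjusted p = 0.00102), the P5 genotype difference -0.36 (adjusted p = 0.924) and the difference between age changes 0.82 (adjusted p = 0.478).

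Library names open with a number whose meaning is not given: 3, 4 or 5 at P5 and 1 or 2 at P11, so it cannot be told apart from age. Within P11, libraries of number 2 (4 libraries) were compared with number 1 (6 libraries), keeping genotype in the model. Sec23a, Sec16b, Sec16a and Copg1 were higher and Srp72 and Sec22c lower, 4 and 2 of 51 members, where 2.26% of all genes were higher and 3.37% lower. Sec23a averaged 272 ± 7.54 and 318 ± 15.6 CPM in P11 WT libraries of number 1 (n = 3) and number 2 (n = 2), and 248 ± 19.8 and 309 ± 35.6 CPM in P11 Het. That is a log2 difference of 0.27 (adjusted p = 0.00767). Srp72 averaged 74.7 ± 2.83 and 65.2 ± 0.106 CPM in WT and 74.0 ± 1.99 and 59.1 ± 0.713 CPM in Het, a difference of -0.26 (adjusted p = 0.00296). Cell type markers differed between these libraries too: 4 of 6 ameloblast markers were lower under number 2, and 2 of 5 bone markers, 1 of 4 odontoblast markers and 1 of 8 keratinocyte markers were higher. The median log2 difference was -0.58 for the ameloblast list, 0.79 for bone and 2.93 for keratinocytes, all 8 of whose markers were above 0. Enam averaged 315 CPM under number 1 and 36.7 CPM under number 2 in P11 WT, and 2315 and 106 CPM in P11 Het. The part of these markers in the members' differences was not tested.

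The same 2 genes passed in the comparison of numbers 4 and 3 within P5, Sec23a as the 1 member that was higher (1.72% of all genes were) and Srp72 as the 1 that was lower (1.33% of all genes were). Sec23a averaged 267 ± 0.764 CPM under number 3 (n = 2) and 329.6 ± 11.4 CPM under number 4 (n = 4) in P5 WT, a fitted difference of 0.25 over both genotypes (adjusted p = 0.024). Srp72 averaged 91.2 ± 0.623 and 75.1 ± 4.65 CPM, a difference of -0.27 (adjusted p = 0.00489). Here 2 of 6 ameloblast markers were lower and 1 of 4 odontoblast markers higher under number 4. The change of Sec23a with age was -0.09 in WT and -0.07 in Het, smaller than either difference between numbers. The calls on Sec16b (0.54, adjusted p = 0.0447), Copg1 (0.21, adjusted p = 0.027), Sec16a (0.25, adjusted p = 0.0214) and Sec22c (-0.43, adjusted p = 0.0256) each ended under 4 or more other settings, and the P5 call on Sec23a ended without P5 WT replicate 1 or 2. Both P5 calls ended without the filter on low counts, and without the 5 libraries with raised markers of other tissue Sec16b alone passed at P11 and Srp72 alone at P5. That setting leaves no P11 WT library of number 2. Over all genes its P11 calls were 42 higher and 85 lower, against 487 and 724 with all libraries. At P5 they were 175 and 125, against 371 and 286. Loss of libraries and loss of marker tissue cannot be told apart here. With P11 restricted to number 1, 33 of the 34 WT age calls and 30 of the 33 Het calls were kept, and with number 2 alone 23 and 27.

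**Figure D5:**
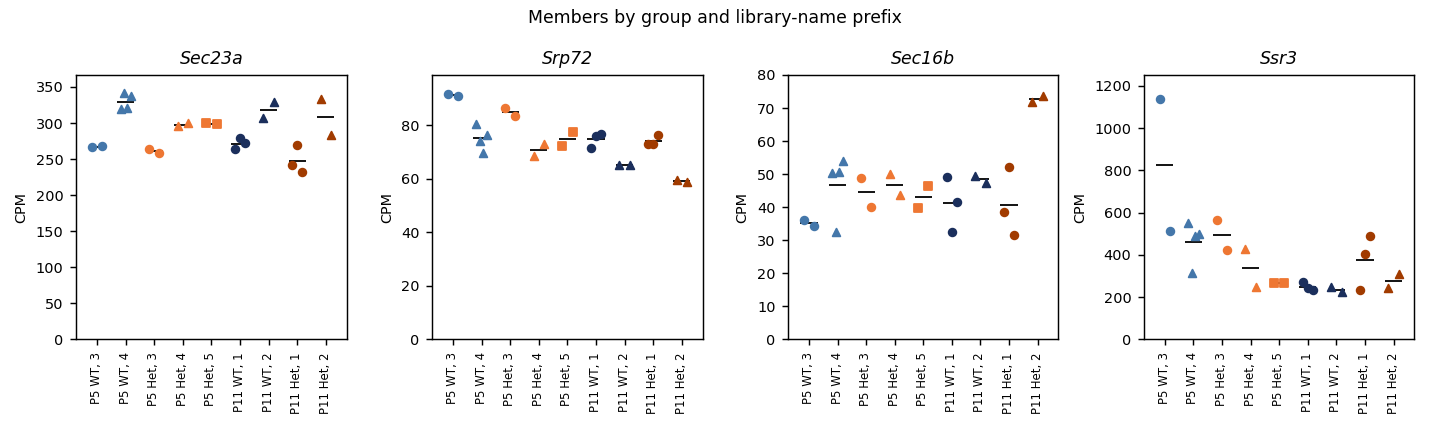
CPM of Sec23a, Srp72, Sec16b and Ssr3 in each library, by group and by the number that opens the library name (marker shape), with means as horizontal lines. Sec23a is higher and Srp72 lower in P11 libraries of number 2 than of number 1, and in P5 WT libraries of number 4 than of number 3, while the Ssr3 panel shows P5 WT replicate 1 at 1137 CPM above all others.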

How the data were processed

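Total RNA of first mandibular molars was extracted with TriPure and PureLink reagents, made into unstranded Nextera XT libraries and sequenced as 100-base paired ends in 2 NextSeq 2000 runs, per the labels' protocols; overlapping genes on opposite strands may share reads. The submitters' processing notes name STAR 2.7.3a and GRCm38; no source used here gives the counter or the annotation. The authors deposited raw counts for 55439 features (18 of them not mouse genes, left out here, at most 0.000457% of a library), a filtered count table of 28711 genes, and a scaled signal table of TMM-scaled CPM, which equals the deposited counts divided by an effective library size to within 5.3e-15. CPM printed here were instead computed anew from the raw counts, with the TMM factors of the fit described below.

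The members and gene lists were chosen with earlier results of these data known. Counts of mouse genes were filtered (filterByExpr, minimum count 10, minimum total 15), scaled by TMM and fitted with edgeR 4.0.16 in R 4.3.3 (glmQLFit, glmQLFTest) over 4 age-by-genotype groups, all 22 libraries, with 18 residual degrees of freedom; 21510 genes were tested. Fitted log2 fold changes use edgeR's default prior count, and a prior count of 2 was used for log2 CPM only. Standard errors were derived from the F statistic. RPKM used exon lengths of GENCODE M21, which also gave coordinates (GRCm38). Genes named are the 8 members with the largest change called with the same sign in both genotypes at 10 CPM or more, members called or else of smallest p in the other comparisons, and paralogs; Ssr3 was added later. In the other lists, up to 4 genes of smallest p and the transcription factors are named. Depth was 32903949 to 45343744 counts a library. Replicates were compared: no pair agreed within sampling noise (chi-square per degree of freedom 6.94 or more). The closest were P5 Het 5 and 6 at 6.94, P11 WT 2 and 3 at 8.68 and P5 WT 5 and 6 at 9.6. Other pairs reached 101. Whether the close pairs share an animal is not given. Ratios were tested with SciPy 1.17.1. Alternatives were DESeq2 1.42.0, limma-voom (limma 3.58.1), DESeq2-type size factors, no filter, library totals, fewer libraries or groups, and a replicate block. Tests were checked on simulated data, with changes set in genes at 10 CPM or more. Of changes of 0.3 on the log2 scale 16% to 18% were recovered. Of changes of 0.5 these were 80% for age in WT, 76% for genotype at P5 and 66% for genotype at P11. Far fewer genes were changed in the simulation than passed in the age comparisons, so its adjusted threshold was stricter. The age recovery therefore does not describe the age comparisons, where changes under 0.3 also passed. No value column of the tables was left unmapped.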

Additional observations from a re-analysis of the deposited data

Results flagged for a closer look

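In 14 of 204 sets (6.86%) of 1 member's values in 1 group, the highest or lowest library stood far from the rest by Dixon's test at the 95% level, where chance gives about 1 in 20. Of these, 4 were in P5 WT replicate 1: Ssr3 at 1137 CPM (the other libraries of the group at 314 to 552), Sec61a1 at 269 CPM (230.4 to 241), Srp9 at 81.7 CPM (71.8 to 75.4) and Tmed3 at 100.6 CPM (85.7 to 89.2), each high. Another 4 were in P11 Het replicate 1: Sec11a was low at 81.0 CPM (91.7 to 95.5), Ssr1 low at 275 CPM (317 to 329.6), Sec22c high at 10.2 CPM (6.65 to 7.64) and Sec61g-ps2 high at 0.372 CPM (0.189 to 0.232). Srp9 was also high in P5 Het replicate 1, at 83.9 CPM (67.7 to 72.8). Sec24d was high in P5 Het replicate 6 at 169 CPM (153 to 158), the library whose labels give both ages. Sec23ip was high in P11 WT replicate 5 at 76.5 CPM (60.6 to 65.0), and Sec63 was low in P11 WT replicate 4 at 115 CPM (126 to 129). Sec61a2 was low in P11 Het replicate 2 at 16.1 CPM (18.1 to 18.4), and Sec31b was high in P11 Het replicate 5 at 1.90 CPM (1.56 to 1.64).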

How the results depend on the processing

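No called result changed sign under the alternatives run. The 8 members given in full kept direction and call under all of them, and the genotype and interaction comparisons stayed at 0 members called by edgeR, DESeq2 and limma-voom. In the WT age comparison, 2 members higher became 6 with library totals only, 4 without the 5 libraries with raised markers, 4 with P11 restricted to number 1, and 2 to 4 when single libraries were left out; 32 lower became 21 with library totals only and 27 to 33 when single libraries were left out. In Het, library totals only kept 31 of the 33 calls, and leaving out single libraries gave 4 to 5 higher and 27 to 30 lower. Calls lost to a single library in WT were Copb2 (without any 1 of the P5 WT libraries, P5 Het 1, 2 or 6, or P11 WT 1, 3 or 4), Sec62 (P5 WT 1, 2, 3, 5 or 6, P11 WT 1, 2 or 3, P5 Het 1 or 6), Srp19 (P5 WT 1, 2 or 5, P11 WT 1 or 3), Sec61g-ps2 (P5 WT 1, 3 or 4, P11 WT 1 or 3), Sec11a (P5 WT 1 or 3, P11 WT 3) and Sec24b (P5 WT 4 or 5, P11 WT 5). In Het they were Tmed3 (P5 Het 1 or 6, P11 Het 1, 3 or 5) and Sec22a (P5 Het 1, 5 or 6, P11 Het 1, 3 or 4). Of the P11 numbers 2 and 1, 4 higher became 7 with DESeq2, 2 without the filter, 1 without the 5 libraries and 1 to 7 with single libraries left out, and 2 lower became 0 without the 5 libraries and 1 to 3. Of the P5 numbers 4 and 3, 1 higher became 0 without the filter, 0 without the 5 libraries and 0 to 2, and 1 lower became 1 to 2.

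Without the 5 libraries the paralog changes were Sec11a over Sec11c 0.2333 in WT and 0.5372 in Het, Sec16a over Sec16b -0.9083 and -0.9858, Sec23a over Sec23b 0.474 and 0.4819, Sec24a over Sec24b 0.3851 in WT and Sec31a over Sec31b -0.7267 in Het. None passed, and the smallest exact permutation p that so few libraries allow is 0.0238 in WT and 0.0286 in Het, which gave an adjusted p of 0.1 at best. Leaving out other single libraries was not run for the ratios, apart from P5 Het 6. With 5 added to each count, Sec31a over Sec31b in WT was -0.7114 (exact permutation, adjusted p = 0.0404). Over all genes, DESeq2 called 40 higher and 87 lower for genotype at P5 (edgeR 14 and 42), 70 and 37 at P11 (5 and 1) and 38 and 14 for the interaction (3 and 0). A block for the library-name number gave 47 and 38 at P11 and 23 and 6 for the interaction, and without the 5 libraries P5 gave 9 and 11.

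The labels do not say that replicate numbers pair the samples, and not every same-numbered pair correlated over 0.1. Between WT and Het correlations of deviations ran from -0.0161 to 0.616 at P5 (5 of 6 over 0.1, 4 best with their own number) and from -0.0613 to 0.31 at P11 (2 of 5 and 1). At P5 replicates 1 to 4 of both genotypes also share the number that opens the library name (3 for replicates 1 and 2, 4 for 3 and 4), so the 2 cannot be told apart there. With the replicate block 33 of the 34 WT age calls and 32 of the 33 Het calls were kept, giving 2 higher and 32 lower, and 4 higher and 29 lower, and 0 for genotype.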

Other observations

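Within groups, the members were steadier between libraries than most expressed genes. Among genes at 10 CPM or more the median within-group coefficient of variation was 7.002% over 45 members and 9.49% over all 9782 genes. This is a description with no test, and the genes were not matched for level of expression. Ssr3 (33.5%), Tmed7 (24.4%) and Sec16b (19.4%) stood apart: 98.7%, 96.1% and 92.1% of genes had a lower value. Ssr3 varied at P5 in both genotypes (48.5% in WT, 34.5% in Het) and in P11 Het (32.6%), and was steady in P11 WT (7.36%).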
